A study of Ovis aries with 10 samples.

Results

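The genes described here are ATP5MC1, COX5A and SLC25A5, which encode a subunit of the mitochondrial ATP synthase, a subunit of cytochrome c oxidase and an ADP/ATP carrier. They were found by name or accession among the 15008 non-control probes of a sheep array. All 3 genes had probes, 6 in all, out of 1023 gene names on the array, and all 6 probes were tested. The tissue was the left ventricular free wall of singleton sheep fetuses. The cortisol group and the vehicle group had 5 fetuses each, with 1 array per fetus. The ewes received cortisol as Solu-Cortef at 1 mg/kg/day, starting near gestation day 115 and lasting about 25 days, and the fetuses were collected after the onset of labour at 139 to 144 days. Each treatment had 7 ewes, of whose fetuses 5 were arrayed. Both groups therefore share late gestation, labour and infusion of the mother rather than the fetus, so the dose that reached the fetal heart is not given by the labels.

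ATP is made in the heart mainly by mitochondria. Cytochrome c oxidase, complex IV of the respiratory chain, passes electrons to oxygen and pumps protons, and COX5A is one of its nuclear-encoded subunits. ATP synthase lets the protons flow back through a ring of identical c subunits and uses the rotation to make ATP. ATP5MC1 is among several genes that encode the same mature c subunit with different targeting sequences. SLC25A5 (also called ANT2) is a member of the family that exchanges ATP made inside the mitochondrion for ADP from the cytosol, with SLC25A4 (ANT1) as the family member typical of heart and skeletal muscle. The mitochondrial content of the ventricle rises around birth, and glucocorticoids are among the hormones that prepare fetal tissues for that transition. In bulk tissue, fewer cells of a type and less RNA per cell cannot be told apart.

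ATP5MC1, listed on the array as LOC443410, had 4 probes, numbered here from the brightest to the dimmest. Probes 1 and 2 were designed on the RefSeq transcript of the gene and started at its bases 424 and 511. Probes 3 and 4 were designed on an expressed sequence tag that the array lists under the same gene identifier, and started at its bases 189 and 188. The latter probes are shown because they are the same 59 bases, marked by capitals, shifted by 1 base, and so measured the same target at 2 places on each array. Probe 1 is shown as the brightest probe of the gene, with no part singled out.
ATP5MC1 probe 1: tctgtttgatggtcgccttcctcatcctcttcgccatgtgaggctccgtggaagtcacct
ATP5MC1 probe 3: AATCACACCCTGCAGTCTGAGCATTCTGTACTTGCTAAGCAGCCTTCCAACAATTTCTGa
ATP5MC1 probe 4: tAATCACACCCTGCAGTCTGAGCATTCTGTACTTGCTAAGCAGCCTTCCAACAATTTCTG

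COX5A and SLC25A5 had 1 probe each, so no second probe of either gene was there to compare. The SLC25A5 probe is shown beside that of SLC25A4 because these carriers are related in sequence. Without gaps, 29 bases of the 2 probes could be aligned, and the 19 that matched are in capitals. No other probe on the array shared a run of more than 13 bases with the SLC25A5 probe on the same strand, or of more than 12 bases with the COX5A probe.
SLC25A5: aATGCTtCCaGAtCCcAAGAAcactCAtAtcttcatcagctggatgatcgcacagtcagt
SLC25A4: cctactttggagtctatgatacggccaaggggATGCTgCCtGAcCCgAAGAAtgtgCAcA

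Levels are the log2 of the processed spot intensity minus the 75th percentile of that intensity over the non-control spots of the same array, and a difference is cortisol minus control. That percentile ranged from 177.2 to 286.3 scanner units. The share of spots well above background ranged from 63.5% to 73.2%, and no spot was saturated. Slide 1 carried replicates 1 to 3 of each group and slide 2 carried replicates 4 and 5. On the array of cortisol replicate 4, a block of 1825 spots near the centre had lost signal. It held 1752 spots that are not controls, 11.5% of all such spots on the array. The 1067 bright spots there had a median log2 deviation of -1.16 from the mean of the other arrays, while on the other 9 arrays the same block had a median between 0.07 and 0.22. The spots of SLC25A5 and of ATP5MC1 probe 4 fell in this block, called the low area here, so results are given with and without it. Because the loss also lowered the 75th percentile of that array, bright spots outside the block had a median deviation of 0.16 there. Scaled on the spots outside the block, the levels on that array were 8.79 in place of 8.96 for ATP5MC1 probe 1, 8.68 in place of 8.86 for probe 2 and -1.43 in place of -1.26 for COX5A. The free-text descriptions of 9 samples name the biceps femoris, a limb muscle, although their titles and tissue fields name left ventricle. Of 22 heart muscle markers, 3 had a probe: TPM1, CRYAB and MYH7 lay at the 97.7th to 99.9th percentile of probes on average. Whether these 3 genes tell heart from limb muscle was not tested, so their levels do not settle the conflict between the labels. Of 19 skeletal muscle markers, 7 had a probe. None of the 10 arrays had a signal well above background for the myogenic factor MYF5 or for the fast skeletal myosins MYH1 and MYH2. The myogenic factors MYOG and MYOD1 were well above background on 7 and 6 arrays, at mean percentiles of 31.3 and 29.2. The fast troponin C gene TNNC2 and the muscle glycogen phosphorylase gene PYGM were so on all 10, at 62.1 and 92.7.

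**Figure D1:**
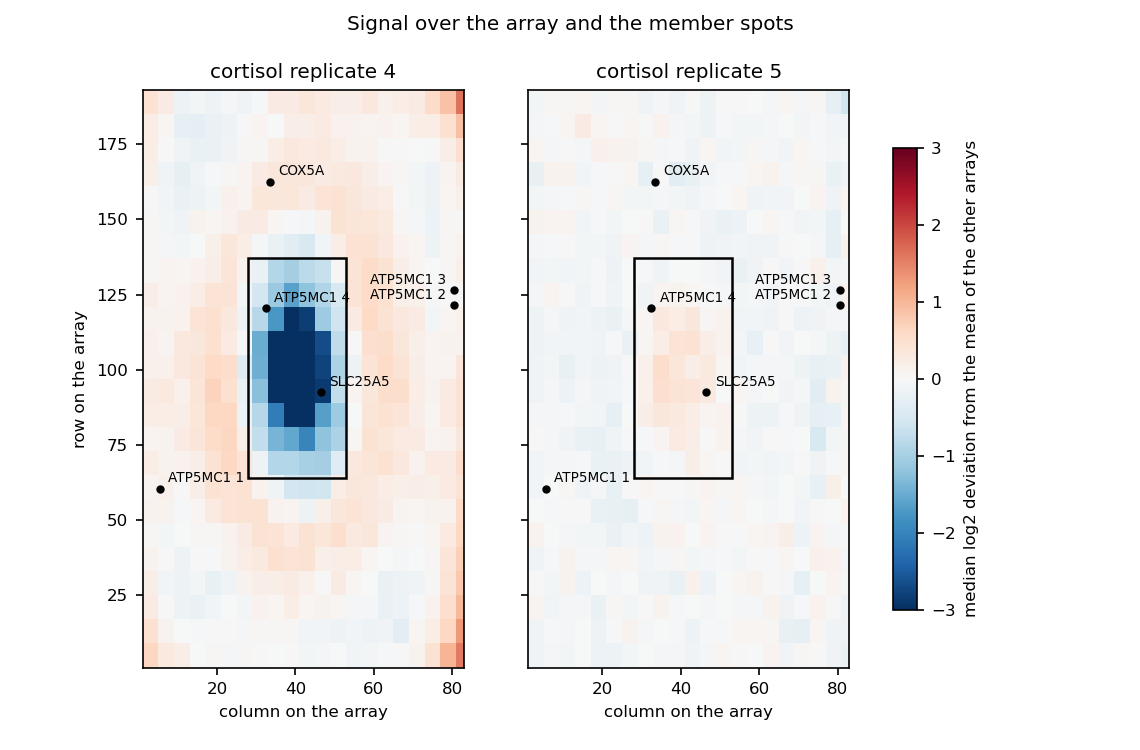
Median log2 deviation of bright spots from the mean of the other arrays in blocks of the array, by row and column, for cortisol replicate 4 (left) and, for comparison, cortisol replicate 5 (right). The box marks the low area; the spots of SLC25A5 and ATP5MC1 probe 4 lie inside it, and those of COX5A and ATP5MC1 probes 1 to 3 lie outside.

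ATP5MC1 was bright at the 2 RefSeq probes. In controls 1 to 5, probe 1 had levels of 9.35, 9.26, 9.13, 9.02 and 9.18, and with cortisol it had 9.15, 9.25, 9.11, 8.96 and 8.87. The groups overlapped over most of their range, and the lowest values were those of cortisol replicates 4 and 5. Probe 1 ranked between 11th and 22nd from the brightest probe of each array. Probe 2 had levels of 9.07, 8.96, 8.92, 8.93 and 9.07 in controls and 9.11, 9.13, 8.92, 8.86 and 8.87 with cortisol. Here cortisol replicates 1 and 2 were above every control and replicates 4 and 5 below every control, and the probe ranked between 16th and 27th on each array. Both probes varied little between fetuses: the within-group SD was 0.14 for probe 1 and 0.11 for probe 2, against a median of 0.27 over the probes tested, placing them at the 9.51th and 3.03th percentile of that spread. This was not particular to ATP5MC1. The other ATP synthase genes tested had 0.09 (ATP5MC2), 0.12 (ATP5PD) and 0.16 (ATP5PO), and the similarly bright SLC25A4 had 0.21.

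The probes on the expressed sequence tag did not behave like the RefSeq probes of the same gene. Probe 3 had levels of -0.48, -1.95, -1.39, -1.19 and -1.71 in controls and -0.72, -2.06, -1.87, -1.92 and -0.85 with cortisol. The groups overlapped, and the highest values were control replicate 1 and cortisol replicate 1. Its percentile among the probes of an array ranged from 50 to 69.1, and its within-group SD of 0.61 was at the 90.0th percentile of probes tested. Whether probes 3 and 4 report the transcript that probes 1 and 2 report was not tested, since the rest of the tag's sequence was not used here. The averages over all probes of the gene therefore mix readings that disagree, and each probe is reported alone.

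Probe 4 followed its shifted copy closely on every array except cortisol replicate 4. Its levels were -0.46, -1.84, -1.29, -1.36 and -1.84 in controls and -0.64, -2.02, -1.92, -3.11 and -1.01 with cortisol. Probe 4 minus probe 3 had a mean of -0.02 ± 0.11 (SD, n = 9 arrays) without that array, with a range from -0.17 to 0.11. On cortisol replicate 4 the same difference was -1.19, and the bright neighbours of the probe 4 spot had a median deviation of -1.04. Probe 1 minus probe 2, with both spots outside the area, had a mean of 0.15 ± 0.10 (SD, n = 9) and was 0.11 on cortisol replicate 4. Over these 9 arrays the levels of probes 3 and 4, which share 59 bases, had a Pearson r of 0.98 and a Spearman rho of 0.97, given as a description of 2 spots of the same target. The levels of probes 1 and 2 followed each other less closely, with r = 0.68 and rho = 0.68 over the same 9 arrays. Relations of ATP5MC1 to other genes below use probe 1 unless stated, so they describe that probe.

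**Figure D2:**
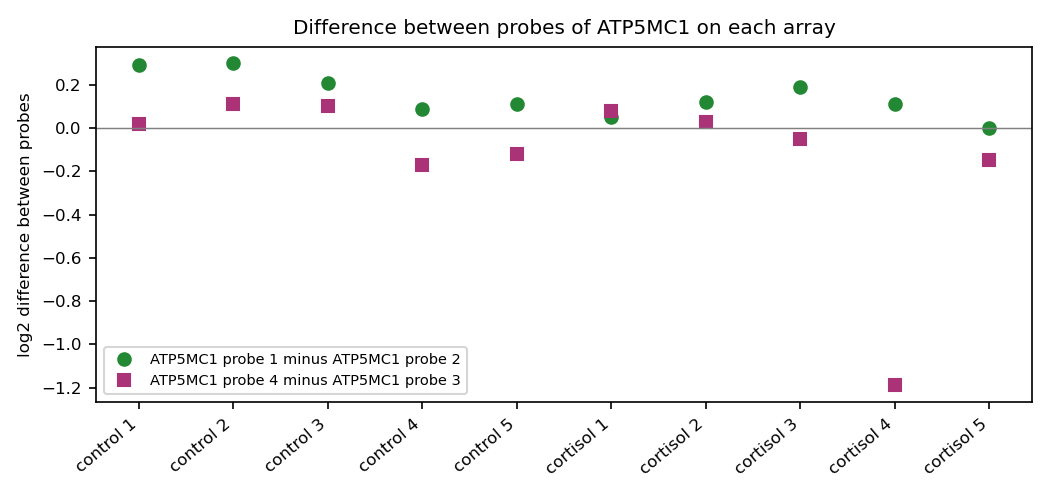
Log2 difference between 2 probes of ATP5MC1 on each of the 10 arrays: probe 1 minus probe 2 (circles) and probe 4 minus probe 3 (squares). Probe 4 minus probe 3 lies between -0.17 and 0.11 on 9 arrays and at -1.19 on cortisol replicate 4, where the probe 4 spot is in the area of lost signal.

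The COX5A probe, also designed on an expressed sequence tag, had levels of -1.25, -1.53, -1.09, -1.69 and -1.51 in controls and -1.16, -1.14, -1.63, -1.26 and -1.13 with cortisol. The highest level was control replicate 3 and the lowest control replicate 4, and all 5 cortisol values lay within the range of the controls. Its percentile among the probes of an array ranged from 54.2 to 62.1. The tested subunits of the respiratory complexes and ATP synthase that are not members had mean percentiles from 90.3 (ATP5PD) to 99.5 (ATP5MC2). How well this single probe reports the COX5A transcript was not tested. The within-group SD of 0.23 was at the 38.4th percentile of the probes tested. On every array the spot was well above background and outside the low area.

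SLC25A5 was well above background on 9 arrays and lost on 1. Levels were 1.26, 1.13, 1.51, 0.62 and 0.79 in controls, and 1.68, 1.02, 1.15, -5.30 and 1.1 with cortisol. Without cortisol replicate 4 the percentile on an array ranged from 79.1 to 86.6, and the groups overlapped. On cortisol replicate 4 the spot was not well above background, with a mean intensity of 36.1 scanner units over a local background of 31.0 and a substitute processed value, and its bright neighbours had a median deviation of -2.27. On the other arrays its mean intensity was 365.5 to 812.7 scanner units. The within-group SD was 2.09 with this spot and 0.33 without it.

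**Figure D3:**
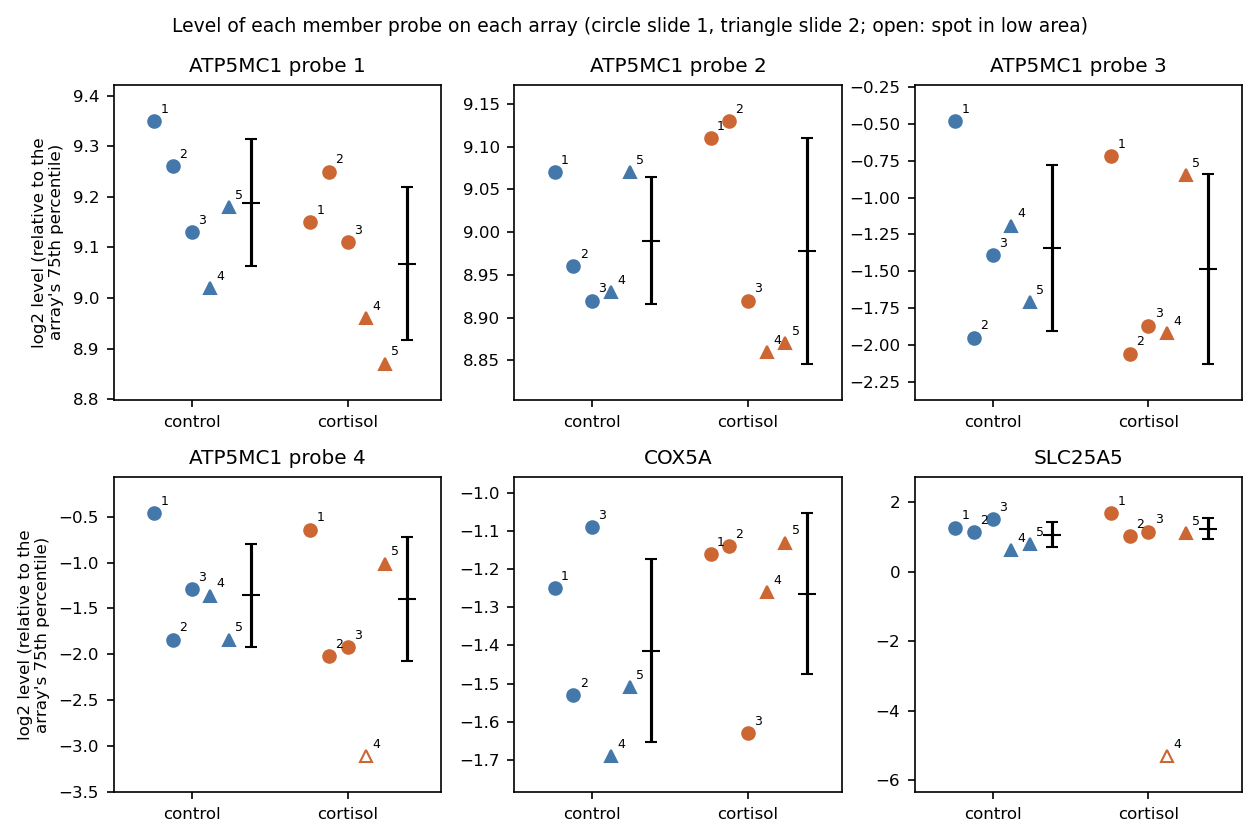
Log2 level of each of the 6 probes on each array, by group, with replicate numbers beside the points. Circles are slide 1 and triangles slide 2, open symbols are spots in the area of lost signal, and black bars are group mean ± SD without those spots (n = 5, or 4 for the cortisol group of ATP5MC1 probe 4 and SLC25A5). The groups overlap in every panel.

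Cortisol against control asks whether raised maternal cortisol altered these transcripts in the fetal ventricle, and no member probe passed the test. Of the 10265 probes tested with limma, 0 (0.0%) had an adjusted p under 0.05, so 0 of 6 member probes is the same as the background. Without adjustment, 333 probes (3.24%) had p under 0.05, or 365 (3.56%) without the low area, and 0 of the 6 in either case. Groups that did not overlap were seen for 0.838% of probes, or 0.925% without the low area, and for 0 of the 6. The labels name separate fetuses as replicates, and p-values measure the spread between these fetuses.

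ATP5MC1 probe 1 averaged 9.19 ± 0.12 (SD, n = 5) in controls, against 9.07 ± 0.15 (SD, n = 5) in the cortisol group. The log2 difference was -0.12 ± 0.11 (SE), with a 95% interval from -0.36 to 0.12, a ratio of 0.919 with bounds of 0.779 and 1.08. Its adjusted p in limma was 0.99, and a two-sided exact permutation of the 10 fetuses gave p = 0.206, where the smallest possible is 0.00794. Only 1 of 5 cortisol arrays was above the control mean. Probe 2 had means of 8.99 ± 0.07 (SD, n = 5) and 8.97 ± 0.13 (SD, n = 5), and its difference was -0.02, with an interval from -0.23 to 0.20. Its exact permutation p was 0.746, and as a ratio its interval ran from 0.853 to 1.15.

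Probe 3 had a difference of -0.14 ± 0.34 (SE), with a wide interval from -0.89 to 0.61. Probe 4 had -0.38 ± 0.44 (SE) with all spots, and -0.04 ± 0.36 (SE) once the low area was left out, which removed its value on cortisol replicate 4. The adjusted p of probe 4 was 0.99 with all spots and 0.999 without the area. The 2 copies of the same 59 bases thus gave -0.14 and -0.04 over different sets of cortisol arrays, 5 and 4. With cortisol replicate 4 left out for both, probe 3 gave -0.03 and probe 4 gave -0.04.

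COX5A averaged -1.41 ± 0.24 (SD, n = 5) in controls, against -1.26 ± 0.21 (SD, n = 5) in the cortisol group. The difference was 0.15 ± 0.15 (SE), with an interval from -0.17 to 0.47, a ratio of 1.11 with bounds of 0.888 and 1.39. A level above the control mean was seen on 4 of 5 cortisol arrays, among them replicate 4. The bright neighbours of the COX5A spot on that array had a median deviation of 0.33. Scaled on the spots outside the low area, its level there was -1.43, beside a control mean of -1.42, and the difference was 0.12. With the main scaling, the adjusted p of COX5A in limma was 0.99 and the exact permutation p was 0.357. Within slide 1 alone the difference was -0.02, the other sign, and within slide 2 alone it was 0.41.

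For SLC25A5 the sign of the difference was set by the single lost spot. With all spots the cortisol mean was -0.07 ± 2.93 (SD, n = 5) against 1.06 ± 0.36 (SD, n = 5), a difference of -1.13 ± 1.15 (SE). Without the area the cortisol mean was 1.24 ± 0.30 (SD, n = 4), and the difference was 0.17 ± 0.21 (SE), with an interval from -0.28 to 0.63 and a ratio of 1.13 with bounds of 0.821 and 1.55. Neither passed, with adjusted p of 0.99 and 0.999 in limma and exact permutation p of 0.778 and 0.46. In slide 1, which does not hold that array, the difference was -0.02. In slide 2 it was -2.81 with all spots and 0.39 without the area, the latter with cortisol replicate 5 as the only cortisol array.

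Levels were also compared between slides, with the low area left out. ATP5MC1 probe 1 had a mean of 9.21 ± 0.09 (SD, n = 6) on slide 1 and 9.01 ± 0.13 (SD, n = 4) on slide 2, and SLC25A5 had 1.29 ± 0.25 (SD, n = 6) and 0.84 ± 0.24 (SD, n = 3). The exact permutation p-values were 0.0381 and 0.0476, and 0.143 for both after adjustment over the 6 probes. ATP5MC1 probe 2, COX5A and probes 3 and 4 of ATP5MC1 had slide differences between -0.10 and -0.01. A test of whether the cortisol difference itself differed between slides, with limma over all probes, called 0 probes with the area left out, with 537 at an unadjusted p under 0.05. The members' adjusted p-values there were 0.942 to 0.973.

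Covariation was examined over arrays with 1 probe per gene, probe 1 for ATP5MC1, in 3 pairs. ATP5MC1 and COX5A had a Pearson r of -0.03 (permutation p = 0.934, adjusted p = 0.934) and a Spearman rho of -0.02 (permutation p = 0.976) over 10 arrays. Leaving out the 2 arrays farthest from the median of ATP5MC1, control replicate 1 and cortisol replicate 5, gave r = 0.15 over 8 arrays. ATP5MC1 and SLC25A5 had r = 0.43 (permutation p = 0.258, adjusted p = 0.775) and rho = 0.37 (permutation p = 0.291) with all spots. Without the low area these became r = 0.20 (exact permutation p = 0.62, adjusted p = 0.929) and rho = 0.20 (exact permutation p = 0.613) over 9 arrays, and r = 0.21 over 7 arrays without the same 2 farthest. These probes showed no relation that passed the test.

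For COX5A and SLC25A5 the lost spot changed Pearson r but hardly the rank correlation. With all spots r was -0.03 (permutation p = 0.816, adjusted p = 0.934) and rho 0.41 (permutation p = 0.245, adjusted p = 0.437). Without the low area r was 0.66 (exact permutation p = 0.0599, adjusted p = 0.18) and rho 0.42 (exact permutation p = 0.27, adjusted p = 0.809) over 9 arrays. Control replicate 4 was lowest for both genes, and control replicate 3 and cortisol replicate 1 were among the highest. Other arrays differed between the genes. Cortisol replicates 2 and 5 were above cortisol replicate 1 for COX5A (-1.14 and -1.13 against -1.16). For SLC25A5 they had 1.02 and 1.1, below cortisol replicate 3 (1.15), which was among the lowest for COX5A (-1.63). With 1 further array left out, rho over 8 arrays ranged from 0.17, without control replicate 4, to 0.57, without cortisol replicate 2 or 5. Leaving out the 2 arrays farthest from the median of COX5A, control replicate 4 and cortisol replicate 3, gave r = 0.57 over 7 arrays. Within slide 1, r was 0.50 over 6 arrays (exact permutation p = 0.353), and slide 2 held too few arrays for a value. Among 34 alternatives to the main setting, the relation was past the threshold in 1, the authors' deposited table without the area. There r was 0.78 (exact permutation p = 0.00853, adjusted p = 0.0256) and rho 0.68 (exact permutation p = 0.0503, adjusted p = 0.151). This setting was added after seeing the data, and the adjustment covers the 3 pairs but not the number of settings.

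**Figure D4:**
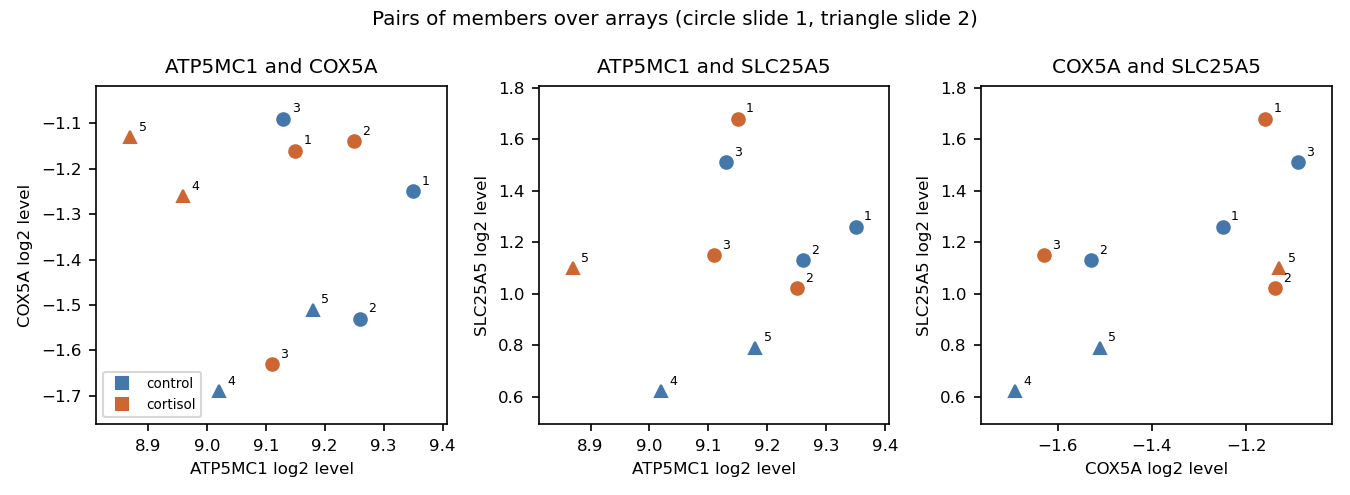
Log2 level of 1 member against another on each array, with the low area of cortisol replicate 4 left out: ATP5MC1 probe 1 and COX5A (n = 10), ATP5MC1 probe 1 and SLC25A5 (n = 9), and COX5A and SLC25A5 (n = 9). Colours are the groups, circles are slide 1 and triangles slide 2, and numbers are replicates; r is -0.03, 0.20 and 0.66.

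Members were then set against 8 other subunits and carriers with tested probes, 24 relations in all, with the low area left out. Over all arrays ATP5MC1 had a positive r with all 8, from 0.05 to 0.76, COX5A with 2 of 8, from -0.49 to 0.17, and SLC25A5 with 4 of 8, from -0.40 to 0.47. The signs for ATP5MC1 did not all hold: without the 2 farthest arrays r was -0.28 with SDHD and -0.55 with SLC25A4, and in slide 1 it was -0.04 with ATP5MC2, -0.32 with ATP5PD and -0.59 with SLC25A6. The highest r was between ATP5MC1 and ATP5PO, the stalk subunit OSCP of the same enzyme: r = 0.76 (permutation p = 0.00782) and rho = 0.71 (permutation p = 0.0276) over 10 arrays. After adjustment over the 24 relations the p-values were 0.188 and 0.662, so it did not pass. It was 0.56 over 8 arrays without the 2 farthest and 0.74 over the 6 arrays of slide 1. ATP5MC1 and ATP5MC2, which encode the same mature subunit, had r = 0.39 (permutation p = 0.267, adjusted p = 0.714) and rho = 0.42 (permutation p = 0.233). SLC25A5 and SLC25A4 had r = 0.47 over 9 arrays (exact permutation p = 0.202, adjusted p = 0.714) and rho = 0.48 (exact permutation p = 0.194). That r was 0.11 over 7 arrays without the 2 farthest and 0.25 over the 6 arrays of slide 1. SLC25A5 and SLC25A6 had r = 0.41 (exact permutation p = 0.267, adjusted p = 0.714) and rho = 0.62 (exact permutation p = 0.0857, adjusted p = 0.759). Their r was 0.37 without the 2 farthest arrays and 0.86 in slide 1.

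Among 615 named genes with tested probes, the 3 whose levels followed each member most closely were picked by Pearson r, with no test since they are the highest of many, and all share the scaling of the same arrays. For ATP5MC1 probe 1 they were EEF1E1 (r = 0.90, 9 arrays), ST3GAL4 (r = 0.86, 10 arrays) and ACSS2 (r = 0.86, 10 arrays), against a median r of -0.13 over all those genes. With the other bright probe of ATP5MC1 the same genes had r of 0.69, 0.51 and 0.62. For COX5A they were LOC100037682 (r = 0.87, 10 arrays), PPIA (r = 0.85, 10 arrays) and ASRGL1 (r = 0.77, 9 arrays), with a median of -0.01. For SLC25A5 they were GGCX (r = 0.83), ATF4 (r = 0.80) and TUBA4A (r = 0.79) over 9 arrays, with a median of -0.07.

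The other genes of ATP production gave small differences. Of 98 further subunits of the respiratory complexes and ATP synthase on the list used, 6 had a tested probe. None of the 6 passed, 1 was above 0 and 5 below, and their median difference was -0.03, against -0.004 over all probes. In ATP synthase, ATP5MC2 had -0.03 ± 0.09 (SE), ATP5PO -0.03 ± 0.11 (SE) and ATP5PD, a peripheral stalk subunit, -0.03 ± 0.10 (SE). In complex I, NDUFA12 had 0.04 ± 0.11 (SE) and NDUFA2 -0.08 ± 0.13 (SE). SDHD, a membrane anchor of complex II, had -0.12 ± 0.10 (SE). The largest adjusted p of these was 0.995 and the smallest 0.99 in limma.

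Among ADP/ATP carriers, SLC25A4 averaged 9.26 ± 0.14 (SD, n = 5) in controls against 9.41 ± 0.26 (SD, n = 5) in the cortisol group, a difference of 0.15 ± 0.14 (SE). Its probe lay at the 99.9th percentile of an array on average. SLC25A6, another carrier of the family, had 4.17 ± 0.04 (SD, n = 5) and 4.08 ± 0.22 (SD, n = 5), a difference of -0.09 ± 0.12 (SE). VDAC1, the outer membrane channel through which the nucleotides pass, had 0.11 ± 0.10 (SE). SLC25A11, the oxoglutarate carrier, had -0.16 ± 0.12 (SE), and SLC25A20, the carnitine carrier, 0.32 ± 0.24 (SE). None of these passed, and limma gave each an adjusted p of 0.99.

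Over all the lists of mitochondrial genes, 24 genes other than the members were tested, of 166 listed. Of these, 11 had a difference above 0 and 13 below, from -0.19 to 0.47, with 0 called. Without adjustment 2 of the 24 had p under 0.05, beside 3.24% of all probes: GABPA, a subunit of a nuclear respiratory factor, with 0.25 ± 0.11 (SE), and BCL2, the inhibitor of apoptosis, with 0.47 ± 0.17 (SE). Both had an adjusted p of 0.99 in limma. PPARGC1A, a coactivator of mitochondrial biogenesis, had -0.19 ± 0.24 (SE), and NRF1 0.24 ± 0.22 (SE).

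**Figure D5:**
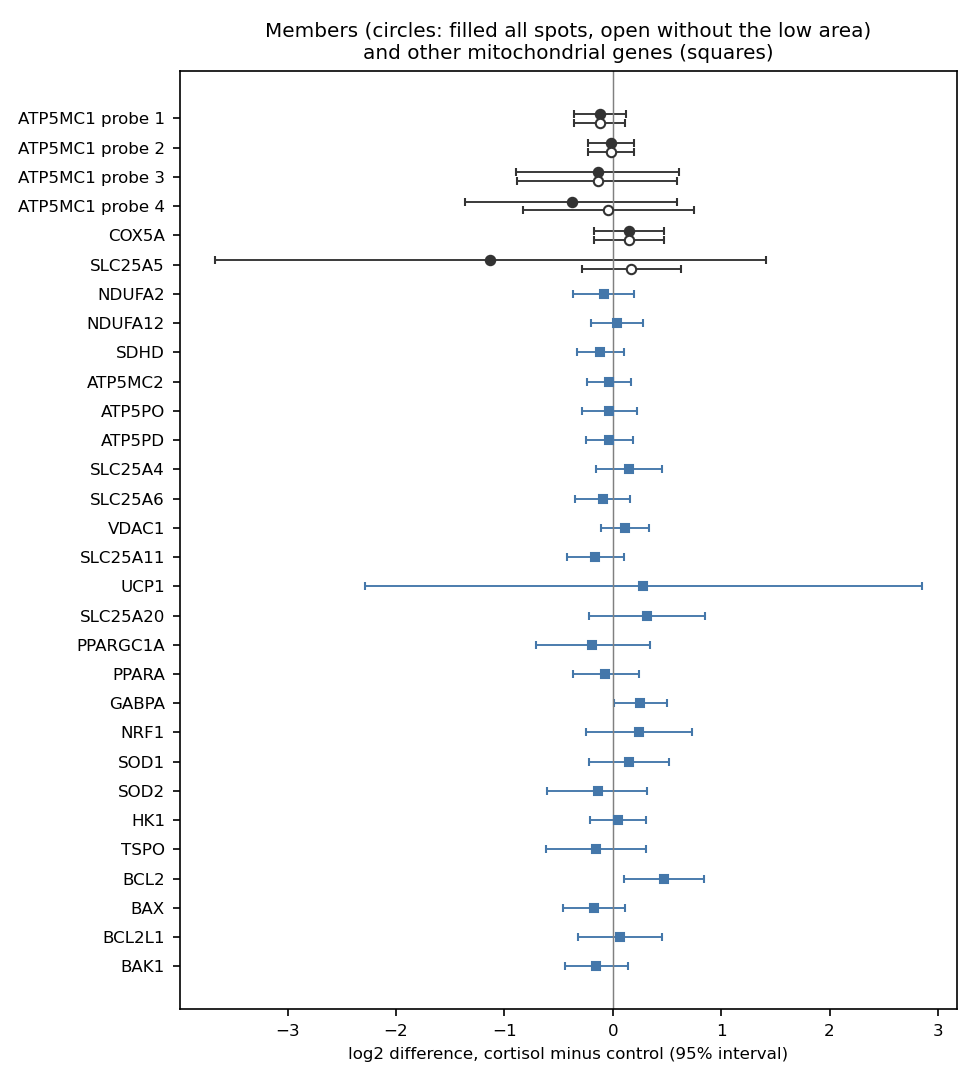
Log2 difference, cortisol minus control, with its 95% interval from limma, for the 6 member probes (circles, filled with all spots and open without the low area) and 24 other mitochondrial genes (squares, all spots). All member intervals span 0; SLC25A5 moves from -1.13 to 0.17 when the low area is left out.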

How the data were processed

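Cy3-labelled cRNA from 10 fetuses was hybridised to 1-colour Agilent sheep arrays, per the labels. The submitters' processing notes name Agilent Feature Extraction, version 10.1.1.1. The deposited processed intensity is background-subtracted and detrended, with a substitute value for spots not above background, per the file headers; it is not normalised between arrays. The authors' deposited log2 table follows median intensity minus background in each array (Spearman correlation 1.0; array medians 5.77 to 5.79); genes were not centred, and the sources used here give no steps for it.

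Here 536 control spots and spots with outlier flags were left out, levels were scaled by the 75th percentile, and a probe was tested if well above background on at least 5 of 10 arrays. Tests used limma 3.58.1 in R 4.3.3 with Benjamini-Hochberg adjustment over 10265 probes (threshold 0.05); single values used exact permutation in scipy 1.17.1, and correlations over 10 arrays 100000 resamples. Code was tested on simulated data. Gene names came from the array files or a sheep RefSeq gene table (ARS-UI_Ramb_v3.0), and some older names were updated by hand. The number of arrays limits the precision. Named genes were the members, each member's 3 closest genes over arrays, and the tested genes of the mitochondrial lists with 1 probe per gene. Members, lists and rules were chosen with earlier results of these data known. Alternatives covered background correction, scaling, the deposited table, filters, flags, slide, replicate number, variance models, the low area and each array left out; combining the low area with other choices was added after seeing the data.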

Additional observations from a re-analysis of the deposited data

Results flagged for a closer look

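Each group of 5 arrays was examined for a value far from the other 4, in 64 groups: the levels of the member probes and the other mitochondrial genes, and the differences between probes of ATP5MC1. A far value was found in 7, where chance gives about 1 in 20. SLC25A5 on cortisol replicate 4 was -5.30, against 1.02 to 1.68 on the other cortisol arrays. ATP5MC1 probe 4 minus probe 3 on the same array was -1.19, against -0.15 to 0.08. COX5A on cortisol replicate 3 was -1.63, against -1.26 to -1.13 in the rest of its group, at a spot outside the area of lost signal. The -1.26 was on cortisol replicate 4, whose scaling that area affects. Scaled on the spots outside the area, it was -1.43 and replicate 3 stayed at -1.63, a smaller gap. The search for far values was not repeated on that scale.

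The other 4 were single levels of genes that are not members. NDUFA2 was 6.4 on control replicate 2, against 6.15 to 6.21. ATP5PD was 2.47 on cortisol replicate 3, against 2.20 to 2.24. VDAC1 was 2.17 on control replicate 1, against 1.93 to 1.94, and SLC25A11 was 1.72 on that array, against 1.39 to 1.46.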

How the results depend on the processing

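Over 31 alternatives limma called 0 probes, with 238 to 940 at an unadjusted p under 0.05. No member probe was past the threshold where it was tested, with adjusted p from 0.663 to 1.0. SLC25A5 was not tested where a probe had to be well above background on all arrays. The counts at an unadjusted p moved most with normexp, 855, of which 784 were higher and 71 lower, beside 164 and 169 with the processed signal; normexp moved the median of all probes from -0.004 to 0.064.

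ATP5MC1 probe 1 kept its sign, from -0.19 to -0.03. The near-zero difference of probe 2 turned positive with array median scaling (0.01), the deposited table (0.06), slide 1 alone (0.07) and array weights (0.0014), and ranged from -0.05 to 0.01 leaving out each array. Probe 3 turned to 0.06 in slide 2 alone, and ranged from -0.33 to 0.08, the latter without control replicate 1. Probe 4 turned to 0.03 with normexp and 0.59 in slide 2 alone, both without the low area, and ranged from -0.66 to -0.04 leaving out each array. The 0.59 had cortisol replicate 5 as its only cortisol array. COX5A turned to -0.02 in slide 1 alone and was 0.41 in slide 2 alone and 0.08 to 0.24 leaving out each array. SLC25A5 ranged from -1.57 to 0.17 leaving out each array, the latter without cortisol replicate 4, and was -2.81 in slide 2 alone with all spots. Without the low area it was 0.18 scaled on the spots outside it, 0.16 with normexp, 0.17 with quantile normalisation, 0.20 with median scaling, 0.22 in the deposited table and 0.11 with slide as a block. In slide 2 alone, also without the low area, it was 0.39, with cortisol replicate 5 as the only cortisol array.

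For ATP5MC1 and COX5A, r was 0.12 with quantile normalisation, 0.11 with median scaling, 0.14 with group means removed, 0.11 in slide 1, and 0.12 scaled outside the low area. It was -0.29 with normexp, -0.28 with slide means removed, -0.18 in the deposited table, and -0.21 to 0.23 leaving out each array. For ATP5MC1 and SLC25A5 it was -0.40 with normexp, -0.73 in the deposited table and -0.39 in slide 1. Without the low area it was -0.03 with normexp, -0.08 in the deposited table and -0.47 with slide means removed. Leaving out each array gave 0.20 to 0.63 with all spots and 0.01 to 0.26 without the low area. For COX5A and SLC25A5 it was 0.00 with quantile normalisation, 0.17 with normexp, 0.24 in the deposited table, 0.08 with group means removed and 0.50 in slide 1. Without the low area it was 0.70 with quantile normalisation, 0.68 with median scaling or scaled outside the area, 0.62 with normexp, 0.78 in the deposited table, 0.62 with group means and 0.65 with slide means removed. Leaving out each array gave -0.10 to 0.66 with all spots and 0.50 to 0.75 without the low area. Apart from the lost spot, the cause of these shifts was not tested.

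Same-numbered arrays deviated together for numbers 1, 3 and 4 (r = 0.231, 0.175 and 0.215) and not for 2 and 5 (-0.013 and 0.029), and for numbers 1, 3 and 4 the same-numbered control was the closest. Same-numbered arrays also shared a slide, and slide was not removed from these deviations, so effects of number and slide were not separated. Since closeness did not hold for every number, the numbers were not taken to pair fetuses. The replicate block called 0 probes (397 unadjusted), with ATP5MC1 probe 1 at -0.12, COX5A at 0.15 and SLC25A5 at -1.13.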

Other observations

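UCP1, the proton carrier of the inner membrane that defines brown fat, had the widest range of levels among the listed mitochondrial genes whose probe lay outside the low area. Its levels were -2.43, -1.78, 1.59, -1.32 and -4.25 in controls and -0.04, -2.32, 0.15, 0.09 and -4.64 with cortisol, the last at a spot not well above background. The groups overlapped, with a difference of 0.28 ± 1.16 (SE). FABP4, the fatty acid binding protein of fat cells, had levels of -3.40, -2.99, -0.40, -2.20 and -4.80 in controls and 0.19, -2.58, -0.89, -1.59 and -4.67 with cortisol. PLIN1, the lipid droplet coat protein of fat cells, had levels between -2.11 and -1.44. Control replicate 5 and cortisol replicate 5 were the lowest arrays for both UCP1 and FABP4, and control replicate 3 and cortisol replicate 1 were among the highest. The other fat cell markers with a probe varied less than UCP1 and FABP4: over arrays the percentile of LPL ranged from 93.0 to 96.0, of LEP from 42.4 to 52.4 and of PPARG from 67.8 to 86.9.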
